A study of Mus musculus with 13 samples.

Results

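Fkbp6, Mael, Ddx4, Tdrd1, Stk31, Tex19.1, Sycp3, Hormad1, Dazl and Slc25a31 are genes of the germ line whose promoters are known to be held silent by DNA methylation in other cells. These 10 of the 24470 genes in the count table were taken by their symbols. Fkbp6 was picked on its fall from experiment 1 to experiment 2, so its values are described without a test. The other 9 were chosen as germline genes of the same class, with earlier results of these data known. Their comparison with all genes tested is therefore not an independent test. DNA methylation itself was not measured in this series.

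Germ cells use these genes to silence transposons through PIWI-interacting RNAs (piRNAs), to build the axes of meiotic chromosomes and to control the translation of germ cell messages. In most body cells their CpG-rich promoters carry DNA methylation, and a Polycomb complex, PRC1.6, that binds E-box and E2F-type motifs adds a separate layer of silencing. In mouse embryonic stem cells kept in serum the genome is largely methylated, and many germline genes are transcribed at low levels.

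The cells were E14 mouse embryonic stem cells of 129/Ola background, kept in GMEM with fetal bovine serum and leukemia inhibitory factor, and no group carried a treatment or a genetic change named in the labels. A low-input protocol took an ATAC library (accessible DNA cut by Tn5) and an mRNA library (oligo-dT capture) from the same lysate. Experiment 1 gave libraries from 10000 and 20000 cells, and experiment 2, done on another day, gave libraries from 5000, 10000 and 20000 cells. Omni-ATAC, the benchmark, was run on 5000, 10000 and 50000 cells, with no experiment or day in the labels. All libraries came from 1 cell line. Libraries of 1 experiment share a day and nothing in the labels says that they came from separate cultures, so p-values measure the spread between libraries within days, and culture state and day cannot be told apart.

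Total counts ran from 13727122 to 20426252 per mRNA library, and 3 counts, the limit that a count of 0 allows, correspond to 0.147 to 0.219 CPM, which are counts scaled to the library total. Mitochondrial genes took 2.22% and 2.02% of the counts in experiment 1 and 1.62%, 1.98% and 1.91% in experiment 2, so this share was also lower in experiment 2, and its part in the results was not tested. All 10 pluripotency genes on the marker list were detected, summing to 3591 to 3681 CPM in experiment 1 and 3526 to 3602 CPM in experiment 2. Of these, Klf4 and Zfp42 rose in experiment 2 by 0.42 ± 0.13 and 0.38 ± 0.11 on the log2 scale and Utf1 fell by 0.57 ± 0.11 (edgeR, adjusted p under 0.05). CPM are not corrected for transcript length, so levels are compared between libraries and not between genes. In bulk libraries, fewer cells that transcribe a gene and less RNA per cell cannot be told apart.

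The promoters of most of the genes share sequence features. The counts of motifs were not used to choose the genes, but methylated germline promoters as a class are known to be CpG-rich and to hold such motifs, so these features are not independent of the choice. The stretches below are the 250 bases before the start site in RefSeq (GRCm38.p6), read 5′ to 3′ on the gene's strand, with the E-box CACGTG and the E2F-type motif TCCCGC or its reverse complement GCGGGA in capitals. Shown are Fkbp6, the other genes whose difference between experiments passed the test, and Sycp3, which like Fkbp6 holds 2 E-boxes and had the smallest difference.
Fkbp6 (chr5:135350045-135350294, minus strand): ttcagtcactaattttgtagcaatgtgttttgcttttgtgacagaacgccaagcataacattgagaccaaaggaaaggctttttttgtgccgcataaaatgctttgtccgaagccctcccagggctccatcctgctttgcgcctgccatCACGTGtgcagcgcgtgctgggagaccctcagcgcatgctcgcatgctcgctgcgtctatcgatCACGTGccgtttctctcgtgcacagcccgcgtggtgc
Mael (chr1:166238745-166238994, minus strand): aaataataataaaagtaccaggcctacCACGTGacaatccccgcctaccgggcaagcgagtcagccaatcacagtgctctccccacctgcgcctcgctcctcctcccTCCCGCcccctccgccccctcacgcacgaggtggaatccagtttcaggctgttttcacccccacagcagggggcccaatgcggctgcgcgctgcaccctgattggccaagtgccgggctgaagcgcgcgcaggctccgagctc
Tex19.1 (chr11:121145893-121146142, plus strand): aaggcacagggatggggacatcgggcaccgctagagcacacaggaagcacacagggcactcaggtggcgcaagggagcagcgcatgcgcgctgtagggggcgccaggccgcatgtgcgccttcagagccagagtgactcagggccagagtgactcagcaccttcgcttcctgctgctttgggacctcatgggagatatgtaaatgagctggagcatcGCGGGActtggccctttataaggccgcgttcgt
Dazl (chr17:50293621-50293870, minus strand): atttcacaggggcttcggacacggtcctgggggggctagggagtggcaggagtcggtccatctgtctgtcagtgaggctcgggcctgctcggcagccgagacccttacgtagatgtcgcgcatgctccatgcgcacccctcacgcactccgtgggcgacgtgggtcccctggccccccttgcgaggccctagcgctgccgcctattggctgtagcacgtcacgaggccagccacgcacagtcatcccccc
Slc25a31 (chr3:40708621-40708870, plus strand): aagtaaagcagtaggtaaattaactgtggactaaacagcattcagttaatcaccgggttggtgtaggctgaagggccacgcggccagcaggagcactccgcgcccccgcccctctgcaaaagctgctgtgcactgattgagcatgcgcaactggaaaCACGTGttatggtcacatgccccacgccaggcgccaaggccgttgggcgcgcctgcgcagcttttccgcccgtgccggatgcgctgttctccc
Sycp3 (chr10:88459337-88459586, plus strand): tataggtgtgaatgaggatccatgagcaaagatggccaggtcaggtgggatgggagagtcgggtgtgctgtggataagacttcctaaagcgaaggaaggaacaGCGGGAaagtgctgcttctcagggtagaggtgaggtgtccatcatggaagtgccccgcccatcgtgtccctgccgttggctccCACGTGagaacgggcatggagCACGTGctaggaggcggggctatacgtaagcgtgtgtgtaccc

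Motifs were counted on both strands in windows of 300 bases, from 250 before to 50 after the start, and all 10 genes had such a window. The E-box was in 8 of the 10 windows, against 7.89% of 15659 promoters. Tex19.1 and Dazl were the genes without one. Fkbp6, Sycp3 and Hormad1 held it at least 2 times, against 0.76% of promoters. In Fkbp6 the E-boxes begin 101 and 37 bases before the start. Of the 11 E-box matches, 10 begin within 150 bases of the start, at the nearest 11 bases before it in Tdrd1, and the exception is Mael at 223 bases. The E2F-type motif was in 6 of the 10 windows, against 25.1% of promoters, and 1 match each in Mael and Slc25a31 lies after the start, outside the stretches shown. No E-box overlapped an E2F-type match, 5 genes held both motifs, and Dazl held neither.

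The windows held 15 to 38 CG dinucleotides, with a median of 23, against a median of 12 and quartiles of 3 and 24 over all promoters. Since both kinds of motif contain a CG, the shares were also taken over the 6363 promoters within the same CG range, where 11.3% held the E-box and 43.2% the E2F-type motif. Among the 47 other germline genes with a window, 10 (21.3%) held the E-box and 16 (34.0%) the E2F-type motif. These matches are descriptions of the letters, and binding of a factor was not measured.

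**Figure D1:**
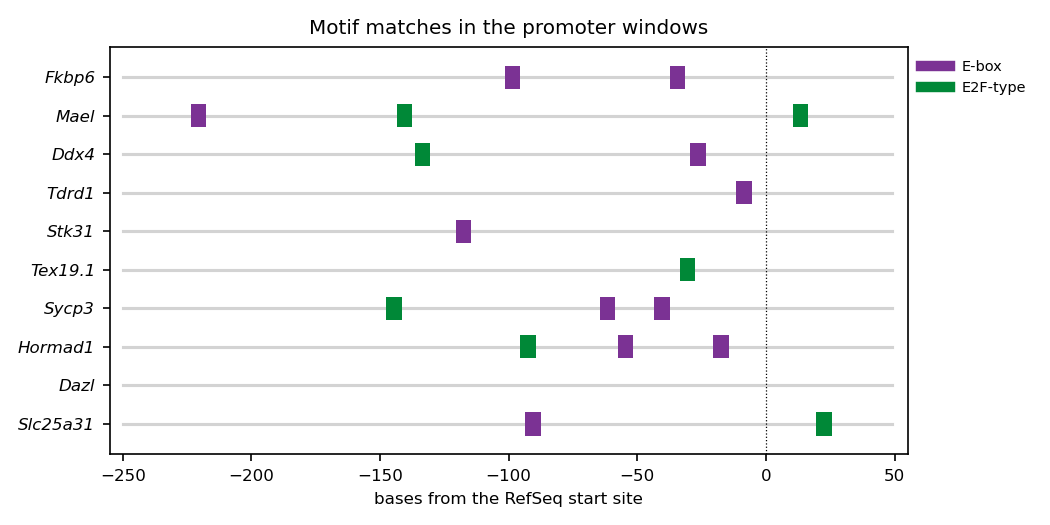
Positions of E-box and E2F-type matches, in bases from the RefSeq start site (x axis), in the windows of the 10 genes (rows, grey lines from 250 bases before to 50 after the start). E-boxes lie within 150 bases of the start in every gene that has one apart from Mael, and the Dazl window is empty.

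Part of the germline genes fell in experiment 2, and none rose. Experiment 2 was compared with experiment 1 over the libraries from 10000 and 20000 cells by edgeR's quasi-likelihood test over 12523 genes. Of the 9 genes other than Fkbp6, 4 fell (Mael, Tex19.1, Dazl and Slc25a31, adjusted p under 0.05) and 0 rose, while 6.76% of all genes tested fell and 5.75% rose. The other 5 all had fold changes below 0 that did not pass the test. The median log2 fold change of the 9 was -1.12, against 0.00 over all genes tested. Over all 5 libraries, 8 of the 9 had every experiment 2 value below every experiment 1 value, against 23.9% of the genes tested in that direction and 17.7% in the other. Ddx4 was the exception. Tdrd1 was tested through its level in experiment 1 alone, as neither fitted library of experiment 2 reached the filter's cut of 0.657 CPM. Slc25a31, with 1 of them over the cut, also needed its experiment 1 level to pass. Over the 8 genes averaging 1 CPM or more, which leave out Tdrd1 and keep Slc25a31, the median was -1.05 and 7 did not overlap. The count of falls was 2 when the 10000-cell library of experiment 1 or either library of experiment 2 was left out, and 3 without the 20000-cell library of experiment 1. With the 5000-cell library in the fit, 3 of the 9 fell, against 5.9% of the genes tested, and Slc25a31 no longer passed.

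Summed over the 9 genes, the level was 75.4 and 70.1 CPM in the 2 libraries of experiment 1 and 29.2, 33.1 and 31.3 CPM in the 3 of experiment 2. The sums of the experiments thus lie apart, with little spread within either. The largest parts of the gap came from Mael (means of 19.0 and 3.36 CPM) and Tex19.1 (16.1 and 7.85 CPM). Single genes could spread more, as Hormad1 did in experiment 1 (6.99 and 3.81 CPM).

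**Figure D2:**
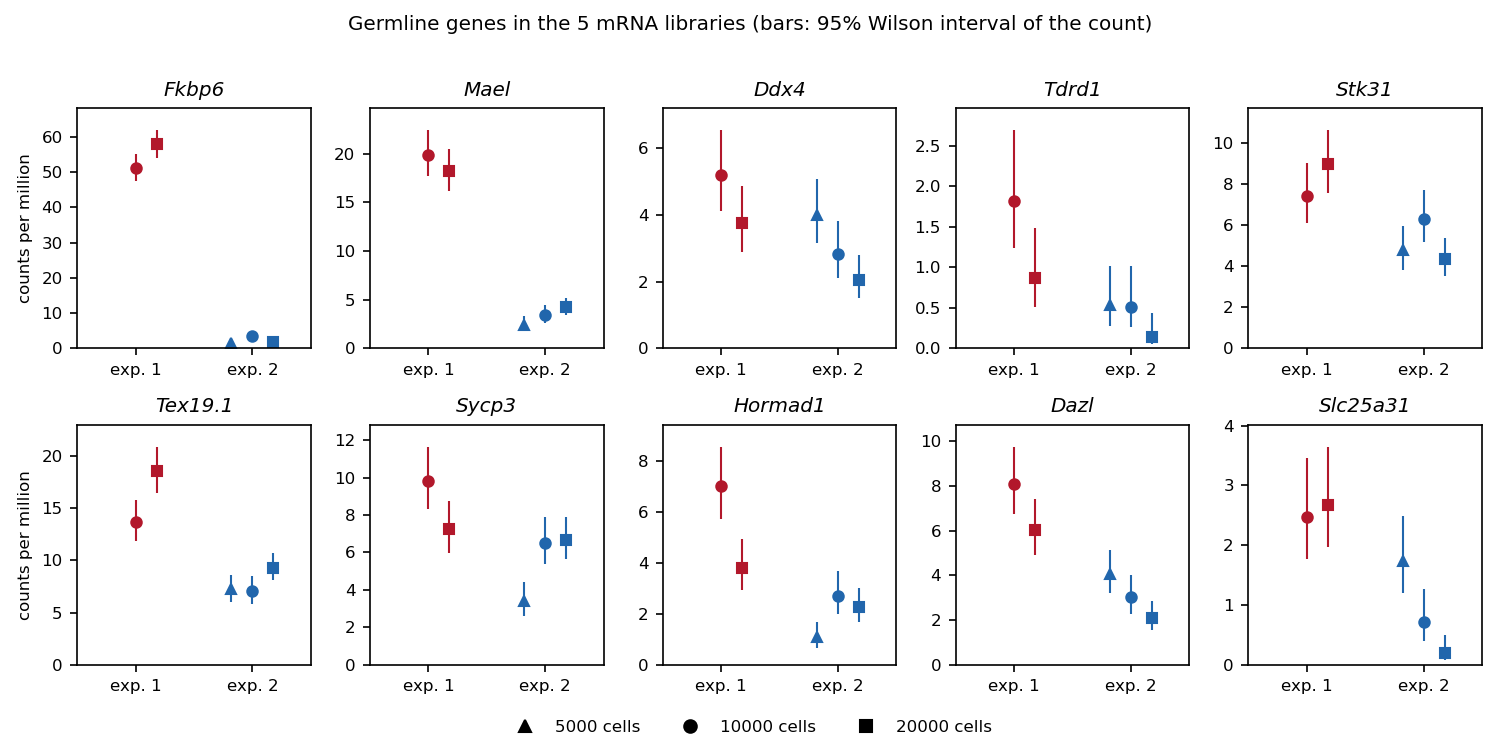
CPM (y axis, a separate linear scale from 0 in each panel) of the 10 germline genes in the 2 libraries of experiment 1 (red) and the 3 of experiment 2 (blue); symbols give the cell number and bars the 95% Wilson interval of the count, which covers counting error only. Fkbp6 and Mael show the widest gaps, and Ddx4 is the gene whose experiments overlap.

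Among the piRNA genes, Fkbp6, a co-chaperone that helps load piRNAs onto PIWI proteins, had 51.2 and 57.8 CPM in the libraries of experiment 1 from 10000 and 20000 cells. In experiment 2 it had 1.61, 3.48 and 1.71 CPM in the libraries from 5000, 10000 and 20000 cells. These levels rest on 703 and 864 counts against 27, 54 and 35. The mean was 54.5 ± 4.67 CPM (SD, n = 2) in experiment 1 and 2.27 ± 1.05 CPM (SD, n = 3) in experiment 2, a 24.0-fold difference. Its log2 fold change was -4.43 ± 0.25 (SE), the value by which it was picked. At mean levels of 10 CPM or more, Calml4 had the next largest fall, at -3.37 ± 0.22. Within matched cell numbers the ratio of experiment 1 to experiment 2 was 14.7 at 10000 cells and 33.7 at 20000 cells.

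Mael, which acts in the nuage of germ cells and in transposon silencing, had 19.9 and 18.2 CPM in experiment 1 and 2.45, 3.42 and 4.21 CPM in experiment 2. Both libraries of experiment 1 lay far above all of experiment 2. The means were 19.0 ± 1.19 CPM (SD, n = 2) and 3.36 ± 0.884 CPM (SD, n = 3), 5.67-fold apart. It fell by 2.31 ± 0.26 on the log2 scale (edgeR adjusted p = 7.80e-07). Over all 11 alternatives tried for it the log2 fold change stayed between -2.46 and -2.17, and the adjusted p between 1.63e-14 and 0.000117.

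Ddx4, the RNA helicase also called VASA, had 5.17 and 3.75 CPM in experiment 1 and 3.997, 2.84 and 2.06 CPM in experiment 2. The 5000-cell library of experiment 2 lay above the 20000-cell library of experiment 1, so the groups overlap. Its log2 fold change was -0.87 ± 0.44 (edgeR adjusted p = 0.222). Tdrd1, a Tudor-domain scaffold that binds PIWI proteins, had 1.82 and 0.870 CPM in experiment 1 and 0.537, 0.516 and 0.147 CPM in experiment 2. The last of these is 3 counts. Its log2 fold change of -2.03 ± 1.01 did not pass (edgeR adjusted p = 0.209). It was -3.12 without the 10000-cell library of experiment 2, -1.35 without its 20000-cell library and -1.40 without the 10000-cell library of experiment 1.

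Stk31, a Tudor-domain protein of germ cells with a kinase-like region, had 7.43 and 8.97 CPM in experiment 1 and 4.77, 6.32 and 4.36 CPM in experiment 2. All 3 libraries of experiment 2 lay below experiment 1, but the log2 fold change of -0.62 ± 0.31 did not pass (edgeR adjusted p = 0.213). Tex19.1, a mammalian protein that restrains retrotransposons, had 13.7 and 18.5 CPM in experiment 1 and 7.22, 7.03 and 9.30 CPM in experiment 2. The experiments do not overlap, and the means of 16.1 ± 3.42 CPM (SD, n = 2) and 7.85 ± 1.26 CPM (SD, n = 3) were 2.05-fold apart. It fell by 0.98 ± 0.25 on the log2 scale (edgeR adjusted p = 0.00930). That call was lost without the 20000-cell library of experiment 1 (edgeR adjusted p = 0.0715) and without the 10000-cell library of experiment 2 (edgeR adjusted p = 0.135). How reads that match both Tex19.1 and its paralog Tex19.2 were counted is not given in the sources used here.

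Of the meiotic axis genes, Sycp3, a core protein of the chromosome axis, had 9.83 and 7.23 CPM in experiment 1 and 3.40, 6.51 and 6.66 CPM in experiment 2. The 20000-cell libraries of the experiments lay close together, and the 5000-cell library was the lowest. The log2 fold change of -0.37 ± 0.29 was the smallest of the 10 (edgeR adjusted p = 0.468). Hormad1, a HORMA-domain protein of unsynapsed axes, had 6.99 and 3.81 CPM in experiment 1 and 1.07, 2.71 and 2.25 CPM in experiment 2. Its libraries do not overlap, but the experiment 1 values differ from each other, and the log2 fold change of -1.12 ± 0.43 did not pass (edgeR adjusted p = 0.0877). Its size depended on the libraries of experiment 1: the log2 fold change was -1.48 without the 20000-cell library and -0.62 without the 10000-cell library.

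Dazl, an RNA-binding protein that controls translation in germ cells, had 8.09 and 6.02 CPM in experiment 1 and 4.06, 3.03 and 2.11 CPM in experiment 2. All of experiment 2 lay below experiment 1, with means of 7.05 ± 1.46 CPM (SD, n = 2) and 3.06 ± 0.976 CPM (SD, n = 3), 2.30-fold apart. It fell by 1.46 ± 0.38 on the log2 scale (edgeR adjusted p = 0.0123). The call was lost without the 10000-cell library of experiment 1 (edgeR adjusted p = 0.0532) and without the 20000-cell library of experiment 2 (edgeR adjusted p = 0.135).

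Slc25a31, the ADP/ATP carrier of male germ cell mitochondria, had 2.48 and 2.68 CPM in experiment 1 and 1.73, 0.709 and 0.196 CPM in experiment 2. The 5000-cell library lay nearest to experiment 1, and the others well below it. It fell by 2.53 ± 0.80 on the log2 scale (edgeR adjusted p = 0.0370). That call rests on few reads, namely 34 and 40 counts in the libraries of experiment 1 and 11 and 4 in the fitted ones of experiment 2. It was lost with any 1 of the 4 libraries left out (edgeR adjusted p of 0.0557 to 0.277), where the log2 fold change ran from -3.66 without the 10000-cell library of experiment 2 to -1.83 without its 20000-cell library, and with the 5000-cell library added (log2 fold change -1.49, edgeR adjusted p = 0.246).

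**Figure D3:**
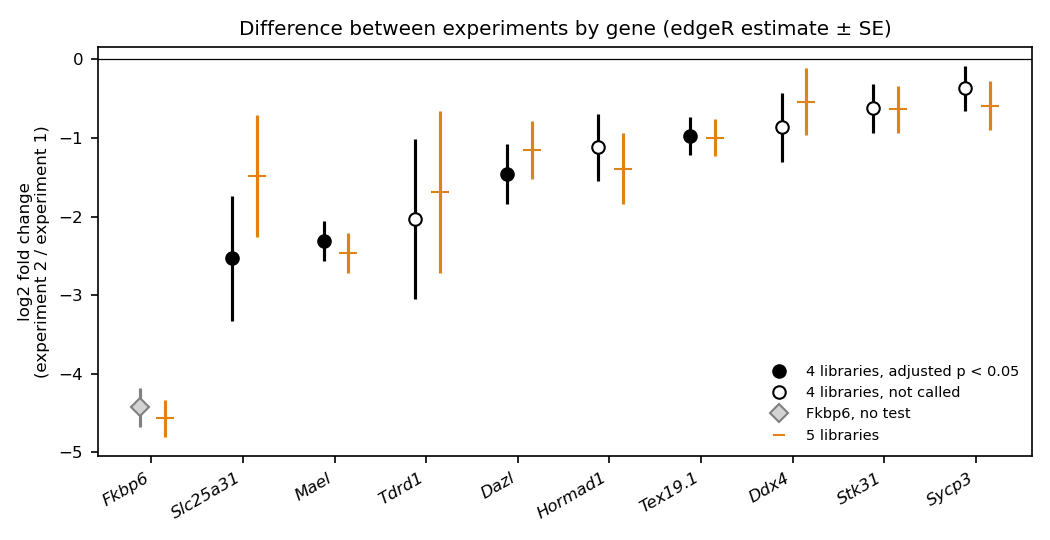
Log2 fold change of experiment 2 against experiment 1 (y axis; edgeR estimate ± SE) for each gene, from the 4 libraries of 10000 and 20000 cells (circles; filled where the adjusted p was under 0.05) and from 5 libraries (orange bars). All estimates lie below 0, and those from 4 libraries run from -4.43 for Fkbp6, which was picked by this value and has no test, to -0.37 for Sycp3.

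The experiments were also set against each other at matched cell numbers, as a description. For the 9 genes other than Fkbp6, 5 of which did not pass the test, the ratio of experiment 1 to experiment 2 was above 1 at both 10000 and 20000 cells, as it was for 33.4% of all genes tested. It was lowest for Sycp3 at 20000 cells (1.09) and Stk31 at 10000 cells (1.18). Across the alternatives for the 9 genes other than Fkbp6, each of the 92 fold changes was below 0. These are refits of the same libraries. With 10000 and 20000 cells, every experiment 1 value of each gene lay above its experiment 2 values, so a sign could hardly turn. Between 20000 and 10000 cells, edgeR called 0 of the 10 genes and 0 (0.0%) of all genes tested. At an unadjusted p under 0.05, 101 genes passed, none of them among the 10, and DESeq2 also called 0 of the 10. Without a block the log2 fold changes of the 10 for cell number ran from -1.23 for Tdrd1 to 0.41 for Tex19.1. With experiment as a block, edgeR called 4 genes in all, again none of the 10, and the range was -1.36 to 0.40. Fits without the block leave the difference between experiments in the spread, so they could hardly call genes that differ between experiments. For Fkbp6 the SE was 1.49 without the block and 0.21 with it.

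The wider germline list, also chosen with earlier results of these data known, was read in the same way. Of 73 other germline genes in the table, 54 had enough counts to be tested, of which 17 fell (31.5%, against 6.76% of all genes tested) and 5 rose (9.26%, against 5.75%). The counts were also 17 and 5 over the 48 genes averaging 1 CPM or more. Of the 54, 4 passed the filter on low counts with no fitted library of experiment 2 over the cut, and 2 with none of experiment 1 over it. Exd1, Msh5, Mei1, Tex15, Boll and Tex19.2, the last of them a fall, had 1 library of experiment 2 over it. Tex13b, a rise, had 1 library of experiment 1 over it. Without the 20000-cell library of experiment 2, 8 fell and 3 rose, and without its 10000-cell library 12 fell and 3 rose.

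Of the 12 tested piRNA and nuage genes, 4 fell, 0 rose and the median log2 fold change was -0.49. Gpat2, a piRNA factor of the mitochondrial surface, had 16.1 and 19.5 CPM in experiment 1 and 5.19, 5.87 and 5.97 CPM in experiment 2, with no overlap (log2 fold change -1.59 ± 0.24, edgeR adjusted p = 6.89e-05). Gtsf1, a partner of PIWI proteins, fell by 1.21 ± 0.23, Mov10l1, a piRNA helicase, by 0.87 ± 0.21 and Rnf17, a Tudor-domain protein, by 0.75 ± 0.24 on the log2 scale.

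Of the 24 tested meiotic genes, 9 fell and 1 rose, with a median log2 fold change of -1.01, or -0.97 over the 21 genes averaging 1 CPM or more. The falls on the log2 scale were led by Smc1b, a meiotic cohesin, at -2.07 ± 0.44 and Sycp1, of the synaptonemal complex, at -1.94 ± 0.45. Hormad2, a relative of Hormad1, had 11.3 and 11.8 CPM in experiment 1 and 5.37, 3.87 and 2.74 CPM in experiment 2, again without overlap (log2 fold change -1.81 ± 0.31, edgeR adjusted p = 0.000239). Meioc, Tex11 and Zcwpw1 fell by 1.77 ± 0.55, 1.66 ± 0.40 and 1.26 ± 0.37. Syce2, a central element gene named after its value was seen, was the 1 that rose, with a log2 fold change of 0.78 ± 0.12, and it lies on chromosome 8.

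Of the 18 other germline genes tested, 4 fell and 4 rose, and the median was -0.25, or 0.12 over the 15 genes averaging 1 CPM or more, so its sign depends on genes with few counts. Tex19.2, the paralog of Tex19.1, had 9.18 and 8.23 CPM in experiment 1 and 2.09, 0.516 and 1.86 CPM in experiment 2 (log2 fold change -2.82 ± 0.45, edgeR adjusted p = 0.000107). Dppa3, a factor that protects the maternal genome from loss of methylation, went the other way. It had 0.947 and 1.14 CPM in experiment 1 and 14.9, 7.42 and 11.5 CPM in experiment 2, all above experiment 1 (log2 fold change 3.17 ± 0.40, edgeR adjusted p = 5.85e-06). Tex101 fell by 2.46 ± 0.60, and Rhox13 and Rpl10l, named after their values were seen, by 1.01 ± 0.16 and 0.47 ± 0.14. Prdm1, a regulator of primordial germ cells, rose by 1.79 ± 0.31, and Kit, the receptor of migrating germ cells, and Tex13b also rose, by 1.26 ± 0.36 and 2.31 ± 0.61.

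**Figure D4:**
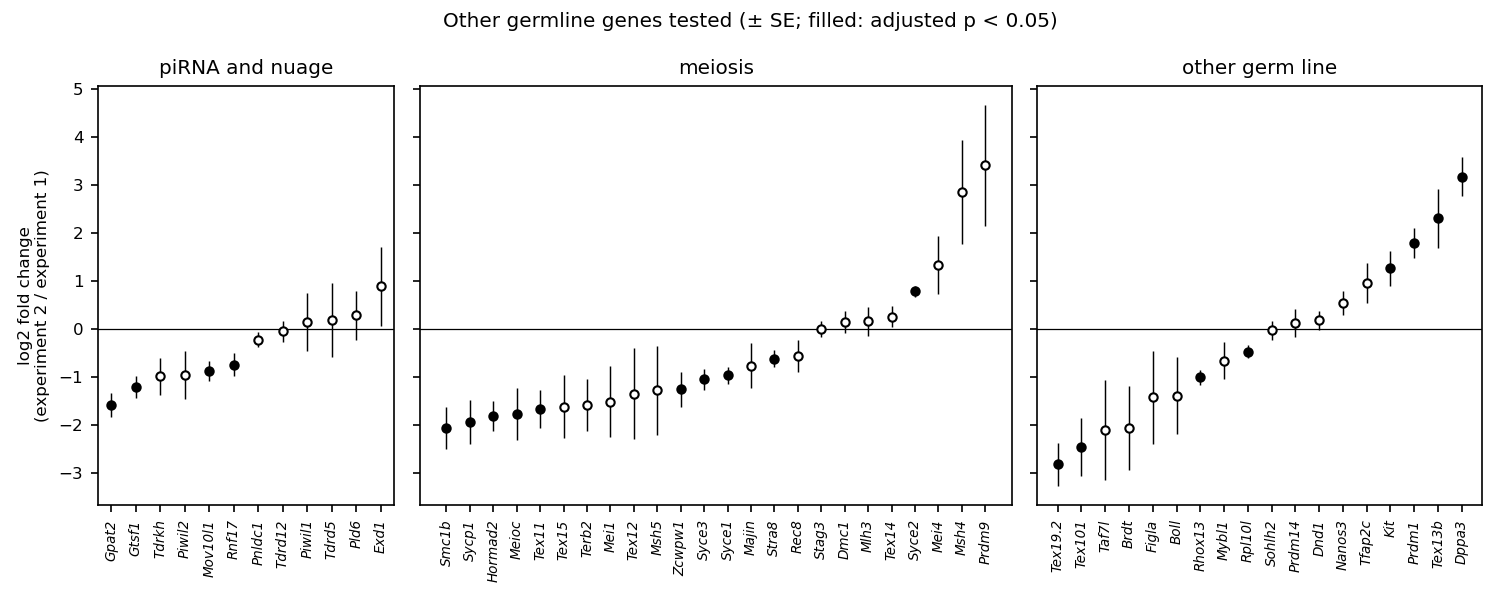
Log2 fold change of experiment 2 against experiment 1 (y axis; edgeR estimate ± SE) for the 54 other germline genes with enough counts, ordered within 3 groups (12 piRNA and nuage, 24 meiosis, 18 other); filled circles had an adjusted p under 0.05. In the piRNA group the filled circles lie below 0, in the meiosis group all but Syce2 do, and in the third group 4 lie on either side.

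Chromosomes differed in their median change. For genes averaging 10 CPM or more, log2 fold changes had a median of 0.46 on chromosome 8 and -0.25 on chromosome 15, which holds 6 of the tested genes of the wider list, 4 of them among the falls. None of the 10 germline genes lies on either, and the medians of their 9 chromosomes ran from -0.10 to 0.07. Without the genes of chromosomes 8 and 15, an alternative added after the values were seen, 13 of 45 genes on the wider list fell and 4 rose. The share of all genes that fell or rose without these chromosomes is not given here. Chromosomes 14 and X, with medians of 0.20 and 0.13, also hold tested genes of the wider list and were kept.

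Genes of the silencing machinery were set beside these. Of 35 genes for DNA methylation, PRC1.6 and histone H3 lysine 9 methylation, all tested, 4 fell (11.4%, against 6.76% of all genes tested) and 1 rose (2.86%, against 5.75%), with a median log2 fold change of -0.07. Dnmt3l, the cofactor of the de novo methyltransferases, had 318.9 and 340.0 CPM in experiment 1 and 219.1, 249.5 and 261.0 CPM in experiment 2, without overlap (log2 fold change -0.37 ± 0.11, edgeR adjusted p = 0.0359). Yaf2, Wdr5 and Pcgf6, subunits of PRC1.6, fell by 0.80 ± 0.24, 0.48 ± 0.12 and 0.46 ± 0.15. Setdb1, a histone H3 lysine 9 methyltransferase, rose by 0.44 ± 0.14 (edgeR adjusted p = 0.0406), although its experiments overlap once the 5000-cell library is counted.

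Some enzymes are given for their function, although their values were known when they were named. The maintenance enzyme Dnmt1 had 188.2 and 182.8 CPM in experiment 1 and 137.9, 156.2 and 182.9 CPM in experiment 2, and it did not pass (log2 fold change -0.13 ± 0.12, edgeR adjusted p = 0.566). Dnmt3a, Dnmt3b, Uhrf1 and the Tet enzymes did not pass either. Without the 10000-cell or the 20000-cell library of experiment 2, 0 of the 35 genes fell and 0 rose. Without the 10000-cell library of experiment 1, 2 fell and 0 rose, and without its 20000-cell library 2 fell and 1 rose.

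Some markers of other cell states also fell, where 6.76% of all genes tested did. On the list of 12 fibroblast genes, 2 of 5 tested fell, and the list summed to 44.8 to 47.0 CPM in experiment 1 and 15.7 to 16.8 CPM in experiment 2. Most of this was Thy1 (log2 fold change -2.19 ± 0.21) and Loxl1 (-0.98 ± 0.30), while Col1a1 had 0.119 to 1.89 CPM, Twist1 1.27 to 2.48 CPM and Pdgfrb 0.477 to 1.61 CPM, none of which passed. Col3a1 and Lum were the 2 genes at 0 in all 5 libraries. On the list of 10 primitive endoderm genes, 3 of 7 tested fell (Gata6, Dab2 and Col4a1). Gata6 was tested through experiment 1 alone, and Dab2 had 1 fitted library of experiment 2 over the filter's cut. The sums were 60.0 to 68.4 against 43.2 to 56.3 CPM, none of the genes being at 0 throughout. Most of the sum was Lama1, whose log2 fold change was 0.30 ± 0.17 and did not pass. Of 8 genes of the state that resembles embryos at the 2-cell stage, Zscan4c and Zscan4d fell among 3 tested, with sums of 10.8 to 15.0 against 0.392 to 4.53 CPM. Zscan4c had 1 fitted library of experiment 2 over the cut. Zscan4d was tested through experiment 1 alone. It had 2.27 CPM in the 5000-cell library against 2.26 and 2.54 CPM in experiment 1, and did not pass with 5 libraries (edgeR adjusted p = 0.420). Their part in the difference of the germline genes was not tested.

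Markers of differentiated germ cells were nearly absent apart from Zp3. Of 12 such genes, 1 was tested, Zp3 itself, a gene of the egg coat, with 58.1 and 61.0 CPM in experiment 1 and 20.2, 21.3 and 25.9 CPM in experiment 2 (log2 fold change -1.33 ± 0.16, edgeR adjusted p = 2.70e-06). Zp1, Bmp15, Prm2 and Tnp1, defining genes of oocytes and sperm, were at 0 in all 5 libraries. The other 7 genes of the list stayed at or below 1.02 CPM.

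The genes whose profile over the 5 libraries was nearest to that of Fkbp6 were Calml4, Slc4a5, Ceacam20, Tsx and Timm8a2. Likeness was the root mean square difference of log2(CPM + 1) after centring on each gene's mean, over 6483 genes averaging 10 CPM or more, and it ran from 0.68 for Calml4 to 0.87 for Timm8a2. Calml4, a calmodulin-like gene, had 57.5 and 38.2 CPM in experiment 1 and 5.79, 4.84 and 4.41 CPM in experiment 2. Tsx, a testis-specific gene next to the X inactivation center, had 24.4 and 23.8 CPM in experiment 1 and 2.68, 2.39 and 3.82 CPM in experiment 2. The 5 are also the genes with the largest falls after Fkbp6 at 10 CPM or more, so their pattern follows from the way they were found. With a mean of at least 1 CPM required instead, 4 of the 5 remained.

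Promoter accessibility was read from the deposited ATAC intervals, which give no height, so presence, width and distance from the start are described without a test. An interval within 1000 bp of the start was found in 23 of 80 pairs of a gene and a list. In the low-input lists of experiment 1 it was found for 2 of the 10 genes with 10000 cells and 1 with 20000 cells, against 31.1% and 37.4% of all genes. In experiment 2 it was found for 1 with 5000 cells, 2 with 10000 and 4 with 20000, against 31.1%, 40.5% and 50.3%. In Omni-ATAC it was found for 1 with 5000 cells, 3 with 10000 and 9 with 50000, against 18.6%, 41.5% and 61.1%.

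Among 7674 genes with mean CPM in the range of these 10, 47.6% to 75.8% had such an interval in the low-input lists and 28.7% to 87.3% in the Omni-ATAC lists. The lists held 9097 to 95457 intervals, most of all in the Omni-ATAC list from 50000 cells, which alone gave 9 of the 23 pairs. The sequencing depth behind each list is unknown, so a missing interval does not show closed chromatin. Of the 28 intervals near the 10 genes, 10 had the smallest width found in the files, 9 bp, and 13 pairs were left when only intervals of at least 50 bp were counted.

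Fkbp6 had no promoter interval in any low-input list, including the lists of experiment 1, whose mRNA came from the same lysates and held 51.2 and 57.8 CPM. Its single interval, in Omni-ATAC from 50000 cells, was 9 bp wide and ended 5 bp before the start. Mael likewise had none in the low-input lists, and in Omni-ATAC it had an 11 bp interval with 10000 cells and one of 483 bp over its start with 50000 cells. Ddx4 and Hormad1 had intervals over the start, of 379 and 177 bp, and Slc25a31 one of 121 bp just before it, each in the 50000-cell Omni-ATAC list alone. Sycp3 had a 177 bp interval over the start in that list and one of 9 bp in the low-input list of experiment 2 from 20000 cells.

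Tex19.1 had an interval in 5 of the 8 lists. In experiment 1 it was 114 bp wide with 10000 cells, and none was listed with 20000 cells. In experiment 2 the widths were 190, 9 and 122 bp with 5000, 10000 and 20000 cells. Stk31 had intervals in 3 lists, 9 bp wide in experiment 2 with 20000 cells, 11 bp in Omni-ATAC with 10000 cells and 181 bp with 50000 cells.

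Dazl had an interval in 7 of the 8 lists, the most of the 10 genes, but all lay inside the gene, between 565 and 922 bp after the start, and none covered the start. The widest were 299 bp in experiment 2 with 10000 cells and 358 bp in Omni-ATAC with 50000 cells. Tdrd1 had none within 1000 bp in any list. Its nearest interval lay 3609 to 3833 bp before the start in 7 of the 8 lists, the lists of both experiments among them. In the authors' unified list of 18310 regions, Dazl and Tex19.1 had a region within 1000 bp of the start, against 33.2% of all genes.

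**Figure D5:**
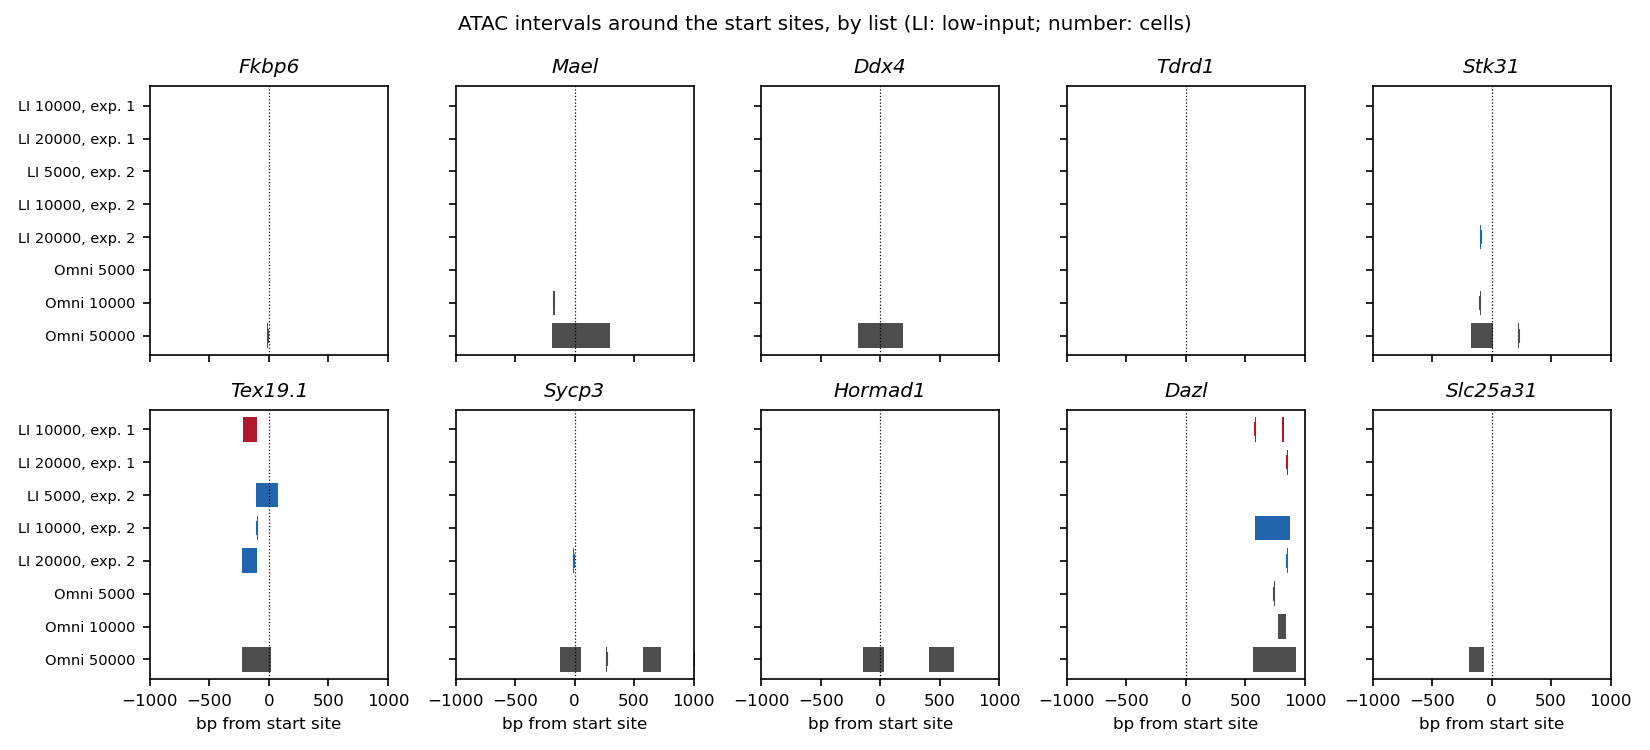
Deposited ATAC intervals within 1000 bp of the start of each gene (x axis, bp from the start, negative before it), by list (rows: low-input (LI) experiment 1 in red, experiment 2 in blue, Omni-ATAC in grey, with the cell number). The bottom row, Omni-ATAC from 50000 cells, covers the start of 6 genes, Dazl has intervals inside the gene in 7 lists and Tdrd1 has none.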

How the data were processed

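Gene counts for 5 mRNA libraries and ATAC intervals for 5 low-input and 3 Omni-ATAC libraries of E14 mouse embryonic stem cells were used. Groups came from the sample titles. The authors deposited whole-number counts per gene, and the build named in the submitters' processing notes is mm10. These notes also name cutadapt, STAR 2.5, featureCounts of Subread 1.5.0-p1, Bowtie2 2.1.0, SAMtools 1.3.1, Picard, MACS2 2.1.1 and bedtools 2.24.0. Annotation, strandedness and the handling of multimapping reads are not given in the sources used here, so overlapping genes and paralogs are uncertain. The ATAC lists were deposited as intervals per library and as 1 unified list, without heights or depth.

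CPM are deposited counts scaled to the library total. Experiments and cell numbers were compared over the 4 libraries from 10000 and 20000 cells with edgeR 4.0.16 in R 4.3.3 (TMM, filterByExpr with a minimum count of 10, glmQLFit, glmQLFTest, Benjamini-Hochberg over 12523 genes, threshold 0.05). SE is the log2 fold change over the square root of F. Wilson intervals (95%) and the limit of 3 counts cover counting error alone, because amplified reads without molecular identifiers are not independent. No pair of mRNA libraries was a duplicate (chi-square per gene of at least 10.7). Per the series' design text the experiment number marks a day, which pairs cell numbers: the differences between experiments at 10000 and 20000 cells correlated with r = 0.562 over 11512 genes. The statistical step was tested on simulated counts.

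A start site is the 5′ end of the gene in the count table. Of the gene IDs, 24467 matched RefSeq (GRCm38.p6). Promoter windows were RefSeq's whose start equals that of the count table, 15659 in all. The 10 genes and all lists were chosen with earlier results of these data known. Named genes are these 10, up to 6 called genes per list by size of change, and the 5 genes most like Fkbp6. Genes of the marker lists that were not called are named outside this rule. Other genes are marked as named after their values were seen. Alternatives were DESeq2 1.42.0, scaling by RLE or by library size alone, other filters, a block, 5 libraries, each library left out, other distances and widths of intervals, RefSeq starts, and a pseudocount of 0.1. A filter at a mean of 1 CPM, the count of intervals without the 50000-cell Omni-ATAC list and the count without chromosomes 8 and 15 were added after the data were seen. Tables were handled in Python 3.11.15 with pandas 2.3.3 and drawn with matplotlib 3.10.9.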

Additional observations from a re-analysis of the deposited data

How the results depend on the processing

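No germline gene of the 10 changed the direction of its difference between experiments under the alternatives run, which refit the same libraries and could hardly turn a sign. Single genes of the other lists were not followed. With a mean of at least 10 CPM required, 2 of 2 tested germline genes other than Fkbp6 fell; on the wider germline list 9 fell and 1 rose among 18 tested, and 2 silencing genes rose. Fewer genes were tested there. With 1 library of the edgeR fit left out, so that the lone library of an experiment is assumed to vary like the others, 2 to 3 of the 9 genes fell; on the wider list 8 to 15 fell and 3 to 6 rose, and on the silencing list 0 to 2 fell and 0 to 1 rose. On the silencing list 2 fell with DESeq2 and 2 with 5 libraries, and 0 rose with scaling by library size alone; the cause was not tested. The replicate block (cell number) left the counts at 4 germline genes, 17 and 5 on the wider list, and 4 and 1 on the silencing list. Cell numbers did not pair the libraries in that comparison (r = -0.0087 across genes). In the comparison of cell numbers, the block by experiment left 0 of the 10 called, and 2 fold changes near 0 turned sign, Fkbp6 from 0.11 to -0.19 and Mael from -0.07 to 0.04. Pairs with a promoter interval numbered 13 with intervals of at least 50 bp, 16 within 500 bp and 22 with RefSeq starts.

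Each single germline gene rests on 3 to 864 counts per library, so small differences in Tdrd1 and Slc25a31 could not be resolved at this depth.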

Other observations

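Promoter intervals were also counted on the wider germline list. Of its 73 genes, 30.1% and 37.0% had an interval within 1000 bp of the start in the low-input lists of experiment 1 from 10000 and 20000 cells. In experiment 2 the shares were 26.0%, 38.4% and 47.9% with 5000, 10000 and 20000 cells. In Omni-ATAC they were 19.18%, 37.0% and 76.7% with 5000, 10000 and 50000 cells. Over all genes the shares were 31.1% and 37.4%, then 31.1%, 40.5% and 50.3%, then 18.6%, 41.5% and 61.1%, in the same order. These shares were not tested.

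Upstream of Fkbp6, 4 lists held an interval 3614 to 3633 bp before its start, those of experiment 2 from 10000 and 20000 cells and of Omni-ATAC from 10000 and 50000 cells. The start of Trim50, the nearest other gene start, lies 3252 bp from that of Fkbp6. The other 4 lists held none there, those of experiment 1 and those from 5000 cells of experiment 2 and of Omni-ATAC. The 4 lists with the interval were the longest, at 29870 to 95457 intervals, and the 4 without it the shortest, at 9097 to 27016. Experiment and list length therefore cannot be told apart here. Trim50 was looked up after these values were seen.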
